A study of Mus musculus with 33 samples.

Results

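These are 299 places in mouse chromatin, away from annotated genes, where both antibodies taken to recognise HSF1 gave a peak after 12 and 60 min of heat shock and neither gave one before it. They make up 8.65% of the 3455 regions found by both antibodies at 60 min. A shared region was a connected group of peaks from the antibody labelled CS (from Cell Signaling) and the antibody labelled MM (a gift of the Morimoto laboratory) with at least 1 bp of overlap. A region was taken when it overlapped a shared region of 12 min and no peak of either antibody before heat shock. The strongest CS peak and the strongest MM peak of a region (by tags) each gave a summit, and the midpoint between them, the region's own summit, had to lie outside all annotated mm10 genes and more than 1 kb from every gene end. The regions were thus chosen by the peak calls of both antibodies at all 3 times, and their tags and fold enrichments are given as descriptions. Tags and fold enrichments of a region are those of its strongest peak of each antibody, not sums over its peaks. At 60 min 294 regions had 1 peak of each antibody, and 5 had more than 1 MM peak. Where a region overlapped several shared regions of 12 min, as 4 did, the one with the most CS tags gave its 12 min values.

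The cells were mouse embryonic fibroblasts (MEFs, connective tissue cells grown from mouse embryos) of the 129Sv.BALB/c background. Wild type cells were sampled unheated, at 12 min and at 60 min of heat shock, and HSF1-/- cells, which lack HSF1 and so show what each antibody collects without its target, at the same times. SRF was mapped in wild type cells at those times with an antibody from Cell Signaling. Of the 33 samples in the series, 15 had a peak list, with a single list for each combination of genotype, time and antibody, so no replicate error could be given. What CS and MM bind is not written in the labels, and both were taken as HSF1 antibodies from the Hsf1 name of the experiment in the file headers. The labels give neither the temperature of the heat shock nor the number of embryos, and peak lists cannot check the cell type.

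HSF1 (heat shock factor 1) is the main transcription factor of the heat shock response. It is held inactive by chaperones in unstressed cells, and on heat it forms trimers that bind heat shock elements, alternating copies of GAA and its reverse complement. It is best known at promoters of chaperone genes, which lie in or next to genes. Regions between genes include enhancers, which can act on a gene over a distance, so the nearest gene named below is a landmark and not a measured target.

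The route from the lists to these regions had few steps. Of the 3455 shared regions at 60 min, 1103 lay between genes (31.9%), and 378 of these overlapped one of the 1412 shared regions of 12 min. A peak of either antibody before heat shock removed 79, which left 299. Among all 60 min shared regions 35.6% overlapped a 12 min shared region and 93.2% overlapped no peak before heat shock. The regions just inside the limit on distance lay 1082, 1099 and 1143 bp from a gene end, next to Gm36059, Gm35658 and Gm7542. Those just outside lay 962, 934 and 918 bp away, next to Gm11212, Dennd1b and Orm3. The region near Gm36059 held 280 CS and 204 MM tags at 60 min, and the one near Dennd1b that missed the limit held 207 and 103.

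Only 3 of the 299 regions reached into an annotated gene with one of their flanks, at Gm36140, Neat1 and Lims1. Reference sequence could therefore be shown under a region only where a promoter window of RefSeq (250 bases before to 50 after a gene's start, GRCm38.p6) fell inside it, at Lims1 and Gm36140. Lims1 encodes an adaptor of focal adhesions, and Gm36140 is a long noncoding RNA gene. The window of Hspb1, a small heat shock protein gene with a shared region of its own, is printed with them because the region with the most MM tags lies upstream of it. All 3 windows lie on the plus strand and run 5′ to 3′, and capitals mark a match to a heat shock element. These windows were chosen after the values were seen.
Lims1, chr10:58323297-58323596: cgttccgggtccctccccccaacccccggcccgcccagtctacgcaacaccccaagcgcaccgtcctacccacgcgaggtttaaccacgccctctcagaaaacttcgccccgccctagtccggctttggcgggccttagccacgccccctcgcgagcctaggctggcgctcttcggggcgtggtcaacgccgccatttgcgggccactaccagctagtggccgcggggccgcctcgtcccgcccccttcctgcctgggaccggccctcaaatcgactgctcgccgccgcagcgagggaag
Gm36140, chr5:148633658-148633957: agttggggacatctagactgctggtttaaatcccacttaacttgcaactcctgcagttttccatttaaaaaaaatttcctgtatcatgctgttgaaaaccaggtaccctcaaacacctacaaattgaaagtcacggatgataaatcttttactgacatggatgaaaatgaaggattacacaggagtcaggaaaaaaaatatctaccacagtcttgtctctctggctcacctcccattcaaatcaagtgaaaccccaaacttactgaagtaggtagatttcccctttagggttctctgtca
Hspb1, chr5:135887669-135887968: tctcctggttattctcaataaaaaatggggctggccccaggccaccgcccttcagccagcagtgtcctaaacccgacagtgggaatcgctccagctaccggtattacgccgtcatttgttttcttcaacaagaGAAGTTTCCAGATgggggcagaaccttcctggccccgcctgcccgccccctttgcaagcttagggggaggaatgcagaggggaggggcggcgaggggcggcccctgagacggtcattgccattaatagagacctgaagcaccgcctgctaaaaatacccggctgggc

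The element searched was GAANNTTCNNGAA or its reverse complement TTCNNGAANNTTC, on both strands, where N is any base, and a window was counted once however many matches it held or however they overlapped. The Hspb1 window held 1 match with 1 mismatch. The window of Bag3, a cochaperone gene that also has a shared region of its own and one of the 299 nearby, is not printed. It held no match. The Lims1 and Gm36140 windows held none, and the region at Lims1 had its summit, at 58321077, 2265 bp upstream of the gene and outside the window shown. Sequence at the summits of the 299 regions was not analysed here.

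RefSeq windows were found for 215 of the 276 protein-coding genes nearest to the regions. None of their 287 windows held an exact element, which allows a share of up to 1.05%, and with 1 mismatch 9 did (3.14%, 95% exact Clopper-Pearson interval 1.44% to 5.87%). Among the 575 windows of protein-coding genes that had a 60 min region within 1 kb of an end, called bound genes here, 30 (5.22%) held the exact element and 19.7% a match with 1 mismatch. Among all 32851 promoter windows the shares were 0.603% and 7.22%. Both shares of the nearest genes thus lay at or below those of all promoters, and both shares of the bound genes lay above them. The 9 windows belonged to Matn4, Pdgfc, C1galt1, Prok2, Tenm4, Sgk1 (with 2 windows), Casp14 and Ercc6l2. These intervals and those of shares below cover counting error only. Intervals of medians below rest only on the spread among regions. Neither kind covers error between replicates, since windows and regions are not replicates.

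Signal at the regions spanned a wide range. At 12 min they held a median of 64 CS tags (24 to 395) and 39 MM tags (13 to 267), and at 60 min a median of 134 CS tags (30 to 1084) and 60 MM tags (14 to 598). The CS library kept 26.3 M tags at 12 min and 19.6 M at 60 min, and the MM library 17.7 and 14.0 M (M for mega). Although both 60 min libraries were shallower, 277 regions (92.6%) held more CS tags at 60 than at 12 min and 218 (72.9%) more MM tags. Other regions shared at 12 min and without a peak before heat shock did so too. Inside genes the shares were 93.1% (CS) and 80.4% (MM), and at gene ends 86.7% and 85.5%. For both antibodies together 211 of the 299 held more and 14 held fewer. Scaled to 1 M kept tags (RPM), a scale added after the data were seen, the medians were 2.43 (CS) and 2.20 (MM) at 12 min and 6.83 and 4.28 at 60 min. On that scale 294 regions were higher for CS at 60 min, 260 for MM and 260 for both, and 5 were lower for both. The regions were also wider at 60 min in 288 of the 299 (96.3%), against 95.1% inside genes and 90.4% at gene ends. The 299 had a median width of 737 bp at 12 min and 1091 bp at 60 min. Width and tags went together (Spearman's rho 0.75 between width and CS tags at 60 min). The part of width in the tag numbers was not tested.

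**Figure D1:**
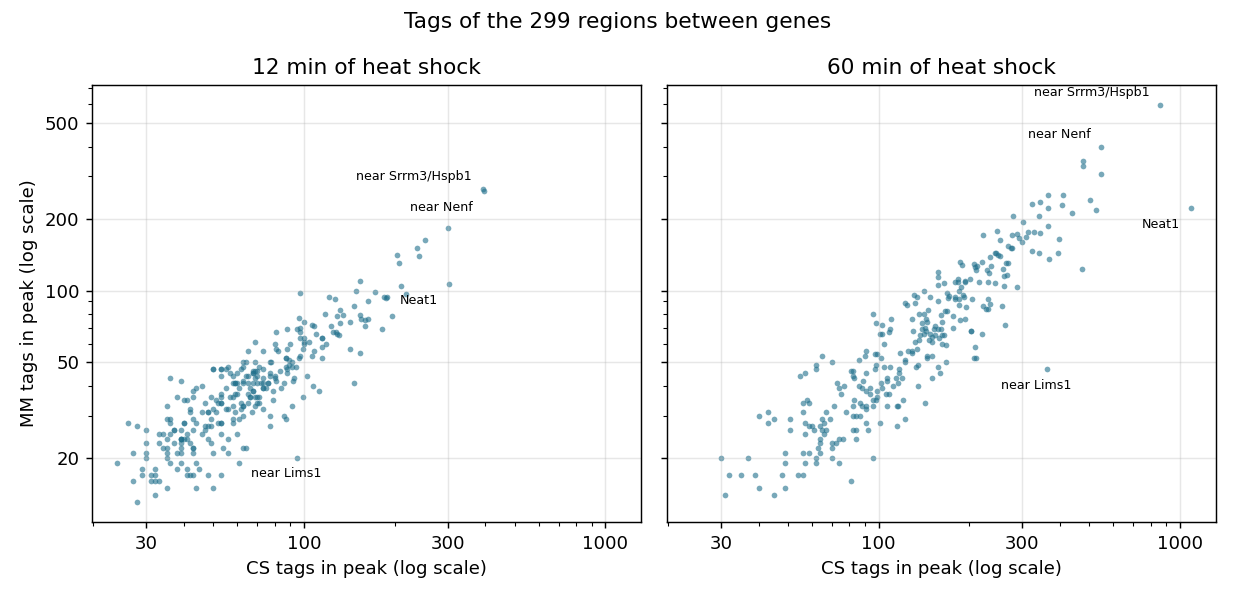
CS tags (x axis) and MM tags (y axis) in the strongest peak of each antibody in the 299 regions at 12 min (left) and 60 min (right) of heat shock. Both axes are on log scales, with 1 point per region. The antibodies give a similar order, and the regions near Nenf and near Srrm3 and Hspb1 stand at the top at both times. Those at Neat1 and Lims1 lie below the band, with more CS than MM tags. In both, 1 CS peak is set against the strongest of several MM peaks at 60 min.

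The antibodies ordered the regions in a similar way within each time. Across the 299 regions Spearman's rho between CS and MM tags was 0.86 at 12 min and 0.91 at 60 min, where both antibodies share their IgG control and both peak lists were needed for a region to be counted. Across time it was 0.60 for CS and 0.57 for MM, from libraries of different depth. The CS and MM summits of a region lay a median of 19 bp apart at 60 min.

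Summits lay at nearly the same place at both times. The summit at 60 min lay a median of 13 bp from the summit at 12 min (95% interval 12 to 16 bp), and 276 of the 299 regions (92.3%, 88.7% to 95.1%) had the 2 summits within 50 bp. Regions shared at 12 min inside genes had a median of 14 bp (12 to 15) and those at gene ends 15 bp (11 to 18), and these intervals overlap. Only 7 regions had summits more than 100 bp apart. The widest gap, 1116 bp, was at Lims1, where the region overlapped 2 shared regions of 12 min and 1 of them gave the summit. Gaps of 423 bp near Phactr1 and 303 bp near Rxra, a retinoid receptor gene, followed. The region near Bag3 had a gap of 207 bp.

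**Figure D2:**
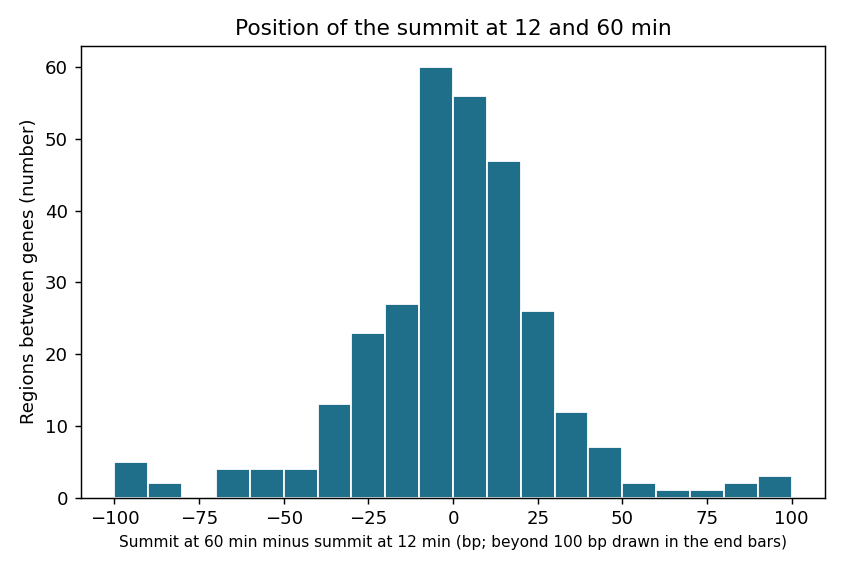
Histogram of the summit position at 60 min minus that at 12 min, in bp, for the 299 regions between genes, in bars of 10 bp; differences beyond 100 bp are drawn in the end bars. The bars centre on 0, and 276 regions lie within 50 bp.

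Rank by fold enrichment was described within each time. At 12 min the median percentile of the regions by the mean of the CS and MM fold ranks was 48.6 (44.3 to 52.3), against 50.3 for those inside genes and 44.1 for those at gene ends. At 60 min their median percentile was 70.3 (65.5 to 73.3), against 69.4 for the 450 regions shared at 12 min inside genes, 61.2 for the 249 at gene ends and 42.3 for the 725 regions between genes that were not shared at 12 min. The lists differ in length, so the percentiles show no change over time. All these groups leave out regions with a peak before heat shock. Of the 100 best-ranked regions 19 were among the 299 and 3 among the 725. The authors' calls had p of 1e-10 or less for both antibodies at 60 min in 212 of the 299 (70.9%), where 50.6% of all 3455 regions did, and FDR of 5% or less in 276 (92.3%), where 83.4% did. At 12 min 112 regions (37.5%) reached that p and 207 (69.2%) that FDR, against 45.8% and 66.6% of all 1412 regions of that time. The rule used these same lists, so nothing is read from the shares. Among the 725 regions, 46 had a CS peak and 46 an MM peak at 12 min.

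**Figure D3:**
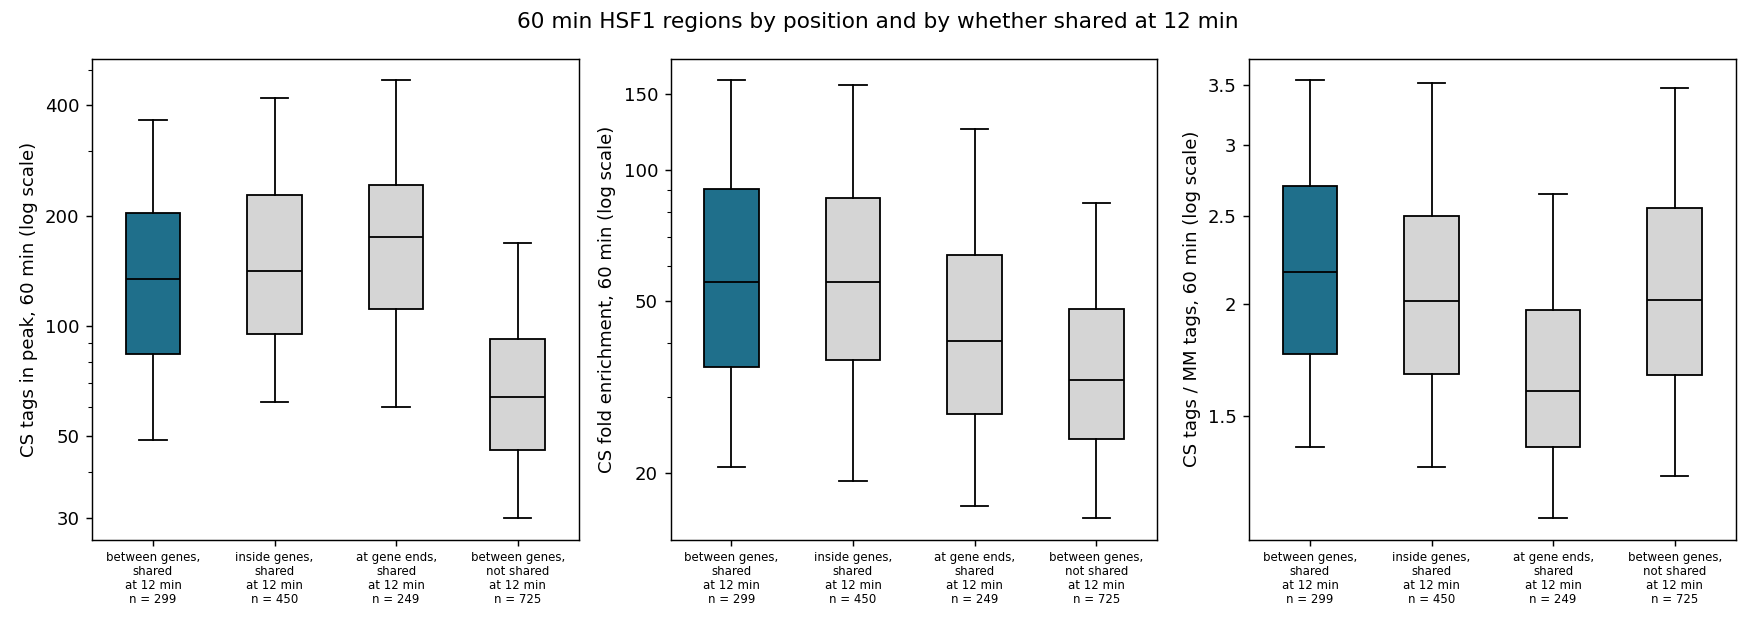
CS tags (left), CS fold enrichment (middle) and CS tags divided by MM tags (right) in the 60 min lists, on log scales, for the 299 regions between genes and 3 other sets without a peak before heat shock. Boxes show quartiles and the median, whiskers the 5th and 95th percentiles. The 299 regions resemble those inside genes, and regions at gene ends have more tags, lower CS fold and a lower ratio of CS to MM tags.

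The balance of the antibodies at 60 min differed with position. The median ratio of CS to MM tags was 2.17 (2.06 to 2.27) at the 299 regions, 2.01 (1.96 to 2.09) inside genes, 1.60 (1.55 to 1.67) at gene ends and 2.02 (1.96 to 2.08) at regions between genes not shared at 12 min. At 12 min the first 3 of these ratios were 1.71 (1.65 to 1.78), 1.71 (1.65 to 1.75) and 1.68 (1.60 to 1.75). The CS library was the deeper at both times, by the depths given above. Fragment lengths estimated by the peak caller were 128 bp (CS) and 107 bp (MM) at 12 min and 161 and 114 bp at 60 min, and their part in the ratio was not tested.

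The 15 best-ranked of the 299 regions lay between 7316 and 304424 bp from a protein-coding gene end. Across all 299, Spearman's rho between that distance and CS tags at 60 min was -0.14. The first in rank was at chr17:67472971-67474020, 118916 bp upstream of Ptprm, which encodes a receptor tyrosine phosphatase of cell contacts. It held 55 CS and 39 MM tags at 12 min, and 364 and 252 at 60 min, with fold enrichments of 231 and 230. The second, 32351 bp upstream of Kazn, held 153 and 110 tags at 12 min and 324 and 229 at 60 min. The third lay 24534 bp upstream of Ica1, with 70 and 46 tags at 12 min and 264 and 130 at 60 min. Upstream of Hhat, which adds palmitate to Hedgehog proteins, a region 17648 bp away had 121 and 94 tags at 12 min and 548 and 308 at 60 min.

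The other regions among the 15 best ranked were near C1galt1, Nenf, Clmp, Foxa2, Pgrmc2, Moxd1, Lin7c, Pgf, Ccser2, Lbh and Tnfaip3. Pgf encodes placental growth factor, and its region, 7316 bp upstream, held 28 CS and 27 MM tags at 12 min and 277 and 151 at 60 min. Foxa2 encodes a transcription factor of endoderm, and its region lay 304424 bp downstream. Tnfaip3 encodes an inhibitor of NF-kappa B signalling. Its region, 47033 bp downstream, held 149 and 100 tags at 12 min and 230 and 84 at 60 min, more for CS and fewer for MM. In RPM, MM stood at 5.64 at 12 min and 5.99 at 60 min, so that direction turned. More CS and fewer MM tags were found in 59 of the 299 regions, and in 34 by RPM. Near Moxd1, 9704 bp downstream, the region held 36 and 43 tags at 12 min and 369 and 136 at 60 min, and its CS fold of 242 was the highest of the 299. None of these 15 regions overlapped a knockout peak.

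By tags rather than fold, the order was different. The most CS tags at 60 min, 1084, were at chr19:5841132-5849828, a region of 8697 bp that is also the widest. The strongest of its 3 MM peaks held 222 MM tags, while the CS tags were all in 1 peak. The region overlaps the end of higher coordinate of Neat1 (chr19:5824708-5845480), the gene of the noncoding RNA on which paraspeckles are built. Its summit lay 1657 bp outside that gene and 3837 bp from Frmd8. The region overlapped 2 shared regions of 12 min, and the one with more CS tags held 302 CS and 106 MM tags. The fold enrichments of the Neat1 region at 60 min, 50.3 and 33.3, were close to the medians of the 299 regions (55.2 and 32.7). It also had the highest tag number in the knockout, 10, with peaks in 2 of the 6 knockout lists.

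The region with the most MM tags, 598, with 861 CS tags at 60 min, lay at chr5:135878982-135880542. It stands 5212 bp downstream of Srrm3 and 7934 bp upstream of Hspb1, which encodes Hsp27, a small heat shock protein that holds unfolded proteins. At 12 min it held 392 CS and 267 MM tags. The region over the Hspb1 promoter window printed above (chr5:135887200-135889619) held 533 CS and 403 MM tags at 60 min. The distant region thus had more tags of both antibodies than the one at the gene. A knockout peak of 4 tags lay under the distant region.

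Nenf, which encodes the secreted protein neudesin, was the landmark of the region with the most CS tags at 12 min (395, with 261 MM tags). At 60 min that region, 14321 bp from the gene, held 548 and 399. Near Cebpb, the gene of a transcription factor of inflammation and fat cell differentiation, a region 71537 bp downstream held 181 and 69 tags at 12 min and 526 and 217 at 60 min. Near Amotl2, which encodes an angiomotin, the region 30103 bp downstream held 300 and 183 tags at 12 min and 308 and 168 at 60 min. In RPM these were 11.4 and 10.3 at 12 min and 15.7 and 12.0 at 60 min.

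Wide regions followed Neat1 near Rxra (5069 bp), Lims1 (4140 bp), Cebpb (3748 bp) and Azin1 (3577 bp), and 12 regions were wider than 2000 bp. The strongest peaks of the Lims1 region had 95 CS and 20 MM tags at 12 min and 361 and 47 at 60 min. Their ratio of 7.68 at 60 min was the highest of the 299, but it sets 1 CS peak against the stronger of 2 MM peaks. The 12 min values come from 1 of 2 shared regions under the Lims1 region. At the low end, the region 69503 bp upstream of Arhgap5 held 24 CS and 19 MM tags at 12 min and 30 and 20 at 60 min. Regions near Cox18, BC053393, Prelp and Dnttip2 were next, with 31 to 37 CS tags at 60 min. Of these, those near Cox18 (66 CS and 36 MM tags at 12 min, 31 and 14 at 60 min) and Prelp (53 and 25, then 35 and 17) held fewer tags at 60 min for both antibodies.

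Distance to protein-coding genes ran between 1203 and 708391 bp. The median distance from summit to the nearest end of a protein-coding gene was 25549 bp (20130 to 30649), against 27171 bp (24244 to 32271) for the 725 regions between genes not shared at 12 min. Within 10 kb lay 77 regions (25.8%, 20.9% to 31.1%), against 28.1% of the 725, and within 100 kb 239 (79.9%, 74.9% to 84.3%), against 77.4%. No difference was resolved at these intervals. The nearest were 1203 bp from Ly6c1, 1255 bp from Ctdspl, 1271 bp from Plaur (the urokinase receptor gene), 1314 bp from Snx33 and 1387 bp from Polr3gl. The farthest were 708391 bp from Myc and 619655 bp from Cited2, both genes of transcription regulators, and then 391376 bp from Gm11677, 366359 bp from Ets1 and 352858 bp from Gm5148. The Myc landmark region held 69 CS and 46 MM tags at 12 min and 116 and 41 at 60 min.

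**Figure D4:**
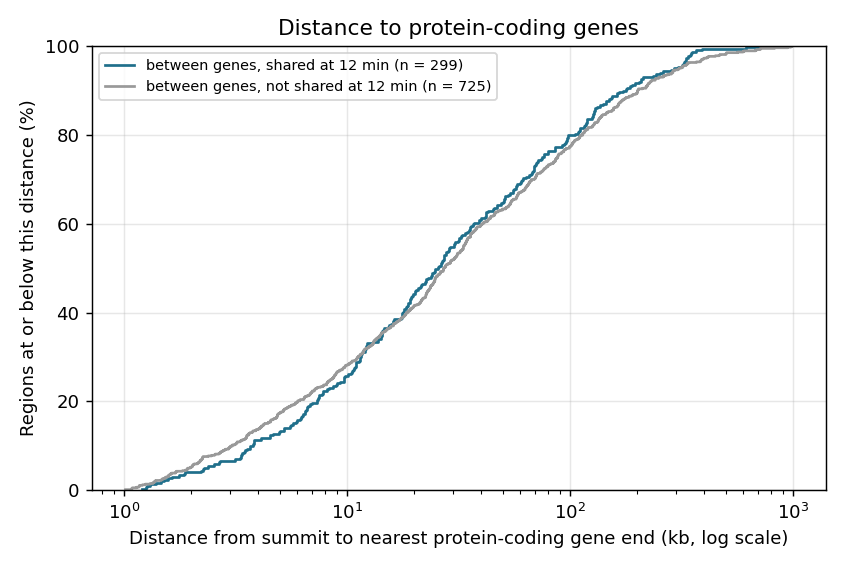
Cumulative share of regions (y axis, %) by distance from the summit to the nearest protein-coding gene end (x axis, kb, log scale) for the 299 regions shared at 12 min and the 725 not shared at 12 min. The curves run close together, with medians of 25549 and 27171 bp.

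The nearest annotated gene of any kind was protein-coding for 122 regions, a long noncoding RNA gene for 121 and a pseudogene for 43. Of the 233 regions whose nearest protein-coding gene had a known strand, 124 lay upstream and 109 downstream (53.2% upstream, 46.6% to 59.8%), an interval that includes an even split. The regions had 276 different nearest protein-coding genes, 1.28% of all 21631, and 21 of these genes were nearest to more than 1 region. Pgrmc2 and Meox1 were each nearest to 3.

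Chaperone genes are the best known class of HSF1 targets. Of 46 genes for cytosolic chaperones and their partners, 4 had one of the regions within 100 kb (8.70%, 2.42% to 20.8%), where 3.16% of all protein-coding genes did (683 of 21631). These were Hspb1, described above, Bag3, Dnaja4 and Fkbp5. Bag3 encodes a cochaperone of Hsp70 in selective autophagy. The region 7351 bp downstream of it (chr7:128553138-128555225) held 39 CS and 21 MM tags at 12 min and 235 and 88 at 60 min, against 591 and 452 at 60 min in the region at the gene's own end. The regions of Dnaja4, an Hsp40 gene, and Fkbp5, which encodes an immunophilin partner of Hsp90, were 88247 and 89751 bp away. None of 8 TRiC/CCT chaperonin genes (0% to 36.9%), 11 mitochondrial (0% to 28.5%) and 20 endoplasmic reticulum chaperone genes (0% to 16.8%) had one within 100 kb. These intervals all include 3.16%. Bound at an end at 60 min were all 8 TRiC/CCT, 3 mitochondrial, 4 endoplasmic reticulum and 30 of the 46 cytosolic genes, beside 2.58% of all protein-coding genes.

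Immediate early genes are switched on within minutes of a stimulus. Of 26 such genes, 6 had a region within 100 kb (23.1%, 8.97% to 43.6%, beside the 3.16% of all genes), and 5 of these, all but Fosb, were the nearest protein-coding gene of a region. None of the 6 was bound at an end at 60 min, where 4 of all 26 and 2.58% of all protein-coding genes were. Fos, a subunit of the AP-1 transcription factor, had a region 9676 bp downstream (chr12:85485734-85487503), with 97 CS and 63 MM tags at 12 min and 267 and 116 at 60 min. Dusp1 encodes a phosphatase that switches off MAP kinases. A region 6280 bp upstream of it held 218 and 97 tags at 12 min and 292 and 166 at 60 min, and overlapped a knockout peak of 6 tags.

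Klf6, which encodes a zinc finger transcription factor, had a pair of regions upstream. That at 15712 bp held 59 CS and 41 MM tags at 12 min and 393 and 143 at 60 min. That at 24001 bp held 64 and 22 tags at 12 min and 122 and 29 at 60 min. Both had more tags at 60 min for each antibody, and the nearer one stood higher at 60 min but not in CS tags at 12 min. Ier5, which is known to bind HSF1 and act in its dephosphorylation, had a region 2527 bp downstream with 52 and 28 tags at 12 min and 69 and 29 at 60 min. Maff, a small Maf factor gene, had one 3788 bp upstream (43 and 29 tags at 12 min, 89 and 42 at 60 min). Fosb, another AP-1 subunit gene, had one 22968 bp upstream with 63 and 33 tags at 12 min and 98 and 49 at 60 min.

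**Figure D5:**
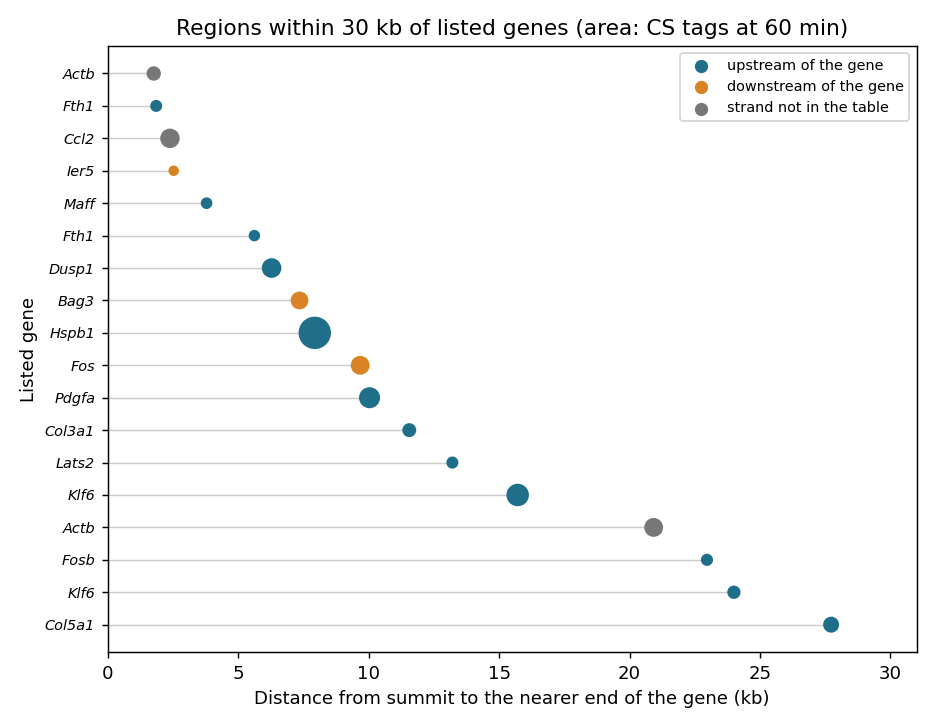
Distance from the summit to the nearer end of the gene (x axis, kb) for regions within 30 kb of a gene of the lists (y axis, 1 line per gene and region); point area is proportional to CS tags at 60 min and colour gives the side of the gene. The Hspb1 region has the largest point, and immediate early genes take 7 of the lines.

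Ferritin and matrix genes were also among the landmarks. Fth1 encodes the heavy chain of ferritin, which stores iron, and had regions 1856 and 5620 bp upstream. They held 64 CS and 44 MM tags and 58 and 36 at 12 min, and 96 and 80 and 86 and 40 at 60 min. Gclm had one 81582 bp away, which made 2 of 20 genes for oxidative and metal stress (10%, 1.23% to 31.7%), beside 3.16% of all protein-coding genes. Of 34 extracellular matrix and fibroblast genes, 4 had a region (11.8%, 3.30% to 27.5%, beside the same 3.16%): Col3a1 (11558 bp upstream), Col5a1 (27727 and 67488 bp upstream), Col5a2 and Col6a3. All 4 encode fibrillar or microfibrillar collagen chains. The region of Col5a2 was that of Col3a1, so the 4 genes were not separate hits, as the interval takes them to be. The Col3a1 region held 36 and 19 tags at 12 min and 135 and 49 at 60 min. The Col5a1 region at 27727 bp overlapped a knockout peak of 9 tags.

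Actb, the gene of cytoplasmic beta-actin, had regions 1761 and 20925 bp from it, and Cfl1 and Msn had one within 100 kb, 3 of 44 actin cytoskeleton genes (6.82%, 1.43% to 18.7%), where 3.16% of all protein-coding genes had one. The nearer Actb region held 97 CS and 98 MM tags at 12 min and 145 and 74 at 60 min, the farther 253 and 163 at 12 min and 268 and 130 at 60 min. In both, MM tags were fewer at 60 min, but in RPM, MM stood at 9.19 at 12 min and 9.28 at 60 min in the farther one. Among 33 genes of growth factor signalling, Ccl2, Pdgfa and Lats2 had one (9.09%, 1.92% to 24.3%). Ccl2 encodes a chemokine that attracts monocytes, and the region 2383 bp away held 153 and 55 tags at 12 min and 287 and 173 at 60 min. Pdgfa, a platelet-derived growth factor gene, had one 10034 bp upstream with 163 and 76 tags at 12 min and 341 and 205 at 60 min. Of the remaining lists, Map1lc3b was the only 1 of 14 for ubiquitin and clearance, Hsf5 of 5 heat shock factor genes and Ckm of 30 markers of other cell types. Beyond 100 kb, Myc (330765 and 708391 bp), Postn (150342 bp), Thbs1 (331529 bp) and Runx1 (283840 bp) were listed genes that were the nearest protein-coding gene of a region. In all 25 of 291 listed genes had a region within 100 kb (8.59%, 5.64% to 12.4%), against 3.16% of all protein-coding genes. The lists were chosen with earlier results of these data known. Some genes also shared a region, as Fosb and Ckm and as Col3a1 and Col5a2 did. This share and those of the single lists are thus descriptions only. Intervals of the cytosolic chaperone, oxidative and metal stress, actin cytoskeleton and growth factor lists include 3.16%, as do those of the 3 lists with a single such gene. Those of the immediate early and extracellular matrix lists start above it, at 8.97% and 3.30%. With only peaks of p of 1e-10 or less, which left 101 regions, 11 listed genes had one. The share of all protein-coding genes was not recomputed at that p, so 3.16% does not compare with those 11.

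Regions that lay close together formed pairs only. For 32 regions (10.7%, 7.44% to 14.8%) another of the 299 lay within 25 kb, making 16 pairs and no larger group, against 8.97% (6.99% to 11.3%) of the 725 regions for their own set and 11.3% of all 3455. Within 100 kb another of the set lay for 14.4% (10.6% to 18.9%) of the 299 and 23.0% (20.02% to 26.3%) of the 725. The sets differ in size, so these shares are not on one scale. With only peaks of p of 1e-10 or less, which left 101 regions, the share within 25 kb was 1.98%. The shares of the other sets were not recomputed at that p. The closest pair, 1206 bp apart and upstream of Dusp6, a phosphatase of ERK kinases, held 129 CS and 56 MM tags and 102 and 52 at 60 min. Pairs followed at Fth1 (3764 bp apart), Pgrmc2 (4668 bp) and Id3 (6322 bp). Id3 encodes an inhibitor of DNA binding by helix-loop-helix factors, and its pair was uneven, with 43 and 31 tags in one region and 257 and 86 in the other. The pair at Hhat was more so, with 56 and 34 against 548 and 308.

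Bound genes were not often close. A protein-coding gene with a 60 min region at an end lay within 100 kb of 29 regions (9.70%, 6.59% to 13.6%), against 8.97% (6.99% to 11.3%) of the 725, and 22.7% of all 3455 regions, which include those at gene ends themselves. With only peaks of p of 1e-10 or less, which left 101 regions and fewer peaks to bind genes, the share of the regions was 2.97%. The other shares were not recomputed at that p. The bound genes themselves were 2.58% of all protein-coding genes.

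The HSF1-/- lists give the background of the antibodies. A knockout peak of any time or antibody lay under 26 of the 299 regions (8.70%, 5.76% to 12.5%), against 8.86% of all 3455 regions, a share near that background. It was 11.3% (8.56% to 14.6%) inside genes, 19.7% (14.9% to 25.2%) at gene ends and 4.28% (2.92% to 6.01%) at regions between genes not shared at 12 min. With knockout peaks of 60 min alone it was 8 regions (2.68%, 1.16% to 5.20%), against 3.33% of all. The 31 knockout peaks under the regions were low, with a median of 5 tags (4 to 10) over a median of 106 bp, and none had p of 1e-10 or less. The 26 regions had a median of 191 CS tags at 60 min in wild type, and the other regions 129. After Neat1 and Col5a1, the highest knockout tags were 7 near Smim20 and near Hint1 and 6 near Dusp1, shared with 6 further regions. Knockout libraries held 5.18 to 15.6 M tags and were called with no control library, so a missing peak does not show that background was absent.

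SRF (serum response factor), a regulator of actin genes and of many immediate early genes, had a peak under 5 of the 299 regions (1.67%, 0.545% to 3.86%). Among all 3455 the share was 0.637%, which that interval includes. It was 0.889% inside genes, 2.01% at gene ends and 0.276% at regions between genes not shared at 12 min. The SRF regions near Azin1 and the farther one near Actb also overlapped a knockout peak. Without all regions that did, the share was 1.10% (0.227% to 3.18%). Of the 5 SRF peaks, 4 were of 12 min, near Actb, Ap5b1, Azin1 and Atp8b4, and 1 was a peak before heat shock, near Actl7b. None was a peak of 60 min, which allows a share of up to 1.003%. Among all 3455 regions 3 had an SRF peak before heat shock (0.0868%), 15 one of 12 min (0.434%) and 5 one of 60 min (0.145%). The count of 0 at 60 min thus shows no difference from all regions. The strongest SRF peak under the 299 regions lay in the farther Actb region. It had a pileup of 5 tags, a fold of 151 and a -log10 q of 4.69, and its summit was 302 bp from the HSF1 summit. The others had pileups of 3 or 4 tags. In the Atp8b4 region the 2 summits lay 40 bp apart, and in the remaining 3 they were 330 to 476 bp apart. These lists held 64, 68 and 18 peaks before heat shock and at 12 and 60 min, from 0.751 to 1.55 M distinct tags, and cannot show where SRF was absent.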

How the data were processed

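Peak lists of HSF1 and SRF ChIP-seq were used, and 18 samples without a peak list were not analysed here. Peaks of both HSF1 antibodies in wild type cells were called with MACS 1.4.2 at p of 1e-04 against IgG, from a merge of 2 replicates, per the file headers. Knockout peaks were called at the same p with no control, and SRF peaks with MACS 2.0.9 against IgG, per the file headers. Positions are on mm10, per the labels. The sources used here do not name an aligner. As deposited by the authors, each HSF1 peak has a tag count, a score (minus 10 times log10 of p), a fold enrichment (ratio) and, with a control, an FDR in percent. Each SRF peak has a pileup (signal), a fold and the -log10 of a p-value and of a q-value, as deposited by the authors. These per-peak values are the authors' own.

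Genes came from the GRCm38.p6 RefSeq table (49943 genes, 21631 protein-coding), the same primary assembly as mm10; strand came from RefSeq promoters and was known for 17274 protein-coding genes. With 1 list per group no test was run. Shares carry 95% exact (Clopper-Pearson) intervals and medians order-statistic intervals. The limit of a count of 0 is 3 counts.

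The regions, the 12 gene lists and the rule for naming were chosen with earlier results of these data known. Named were the 15 best fold ranks, the 5 highest and lowest in CS tags, the 5 widest, nearest and farthest, the 5 with most knockout tags, every region with an SRF peak, and listed genes with a region within 100 kb; other names were chosen after the values were seen. Overlaps and places were tested on simulated data. Python 3.11.15, pandas 2.3.3 and scipy 1.17.1 were used.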

Additional observations from a re-analysis of the deposited data

How the results depend on the processing

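No paired analysis was possible because there was 1 list per group and no result came from a test. Each of 9 results was recomputed under its 9 alternatives, which gave 81 values, and 68 stayed within the main interval or, for counts, within 1.5 times. Peaks with p of 1e-10 or less left 101 regions and 11 listed genes, and the shares became 2.97% for a bound gene within 100 kb and 1.98% for another region within 25 kb. The median percentile was then 77.5 and the median summit distance 11 bp. Peaks with FDR of 5% or less left 197 regions, 15 listed genes and 7.11% with another region within 25 kb. With the CS summit alone the summit distance was 18 bp and with the MM summit alone 19 bp. More than 5 kb from every gene end, the median distance to a protein-coding gene was 34841.5 bp, by construction. Knockout peaks of 60 min alone gave 2.68%. Beyond these, the cause was not tested. All 299 regions remained when protein-coding genes alone counted as genes (413 regions) and when only shared regions before heat shock were excluded (341). Before heat shock the estimated fragment lengths were 45 bp (CS) and 40 bp (MM), near the tag length of 36 bp, and the kept tags were 25.2 and 15.9 M, against 19.6 and 14.0 M at 60 min. The heat shock element at the summits was not run, since it needs genome sequence. In RPM (tags scaled to 1 M kept tags), an alternative chosen after seeing the data, the regions with fewer tags of both antibodies at 60 min numbered 5 in place of 14, and those with more CS and fewer MM tags 34 in place of 59. The SRF lists rest on at most 1.55 M distinct tags.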

Other observations

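Of the 299 regions, 14 had a bound gene as their nearest protein-coding gene. The regions had 276 different nearest genes, and 2.58% of all protein-coding genes were bound. The same count was not made for other regions. Among the bound nearest genes were Slc5a3, Rfc4, Ankrd11, Tpt1, Cebpb, Amotl2, Bag3, Azin1, Dennd1b, Dact2, 1600014C23Rik, Col5a1 and Gm536. These were listed after their values were seen. Near Slc5a3, which encodes a myo-inositol transporter of the osmotic stress response, the region 18734 bp upstream held 77 CS and 50 MM tags at 12 min and 221 and 132 at 60 min. Near Ankrd11, the region 6229 bp upstream held 241 and 139 tags at 12 min and 234 and 138 at 60 min. In RPM (tags scaled to 1 M kept tags) these were 9.16 and 7.83 at 12 min and 11.9 and 9.85 at 60 min, so the direction turned with the scale. The other regions of the 14 with fewer tags of both antibodies at 60 min had Hhipl2, Akr1e1, Map3k7cl, Rcl1, Rb1cc1, Tle3, Ly6c1, Hdac11, Cox18, Smurf2, Prelp, Smim20 and Zfr as their nearest protein-coding gene. In RPM 5 regions were lower for both antibodies at 60 min, those near Rcl1, Rb1cc1, Cox18, Smurf2 and Prelp. The ratios of kept tags at 60 to 12 min were 0.746 (CS) and 0.790 (MM).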
